A study of Mus musculus with 18 samples.

Results

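The genes described here are 2 peroxisome proliferator-activated receptors (PPARs), Pparg and Ppard, and 8 genes often used as readouts of PPAR activity, namely Fabp4, Lpl, Angptl4, Plin2, Cpt1a, Pdk4, Acadvl and Hadha. They were chosen by name, with earlier results of these data known, and all 10 were found among the 18668 gene symbols of the expression table. The shares of all genes given beside counts of members are therefore descriptions and not tests. Expression had been measured by RNA sequencing of bone marrow-derived macrophages (BMDM), which were grown from mouse marrow with macrophage colony-stimulating factor, in 18 libraries. The cells came from Apoe-/- mice or from Apoe-/-/Treml4-/- double-knockout (DKO) mice on a C57BL6 background, the DKO line having been bred by crossing Apoe-/- with Treml4-/- animals. Each genotype was left untreated (vehicle, PBS) or exposed to oxidized low-density lipoprotein (oxLDL), a modified lipoprotein that macrophages take up, at 10 or 60 µg/ml, with 3 libraries in each of the 6 groups. Every animal carried the Apoe knockout, so all comparisons, controls included, were made on that background and no wild-type group was analysed here.

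PPARs are nuclear receptors that bind DNA together with a retinoid X receptor and switch on genes when fatty acids or oxidized lipids occupy their ligand pocket. PPAR gamma is best known as a regulator of adipocyte formation and is also active in macrophages, where it raises lipid uptake genes, whereas PPAR delta is widely expressed and promotes fatty acid oxidation. Oxidized fatty acids carried by oxLDL are known PPAR ligands, which is why this set of genes bears on the exposure used here.

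The sequencing depth recovered from the deposited values was 39.7 to 54.1 M reads per library. Treml4 was at 1.861 to 3.485 RPKM (reads per kilobase of gene, scaled to library depth) in the untreated Apoe-/- libraries. In Apoe-/- it was at 3.084 to 3.61 RPKM with 10 µg/ml oxLDL and at 8.055 to 8.386 RPKM with 60 µg/ml. It was listed at 0 in 8 DKO libraries and at 0.012 RPKM in the other one. The knocked-out Apoe was still listed with reads, at 0.937 to 4.131 RPKM in Apoe-/- libraries and 0.349 to 1.389 RPKM in DKO libraries. What these Apoe reads stand for was not tested. All 8 macrophage markers on the list reached 1 RPKM in at least 1 library, and their summed level ran from 8932 to 11764 RPKM in untreated Apoe-/- cells and from 6529 to 8483 RPKM with 60 µg/ml oxLDL. These sums mostly follow Lyz2, which was at 3970 to 9911 RPKM over all libraries. No other listed macrophage marker exceeded 671.321 RPKM. Of 7 adipocyte markers, 3 were in the table and summed to at most 0.055 RPKM, so the adipocyte genes among the members were measured in cells almost without adipocyte transcripts. The libraries of replicate 2 in Apoe-/- and of replicate 3 in DKO expressed Xist, the RNA that silences an X chromosome in female cells, at all 3 treatments, and the other libraries did not. Summed fibroblast markers ran from 0.43 to 11.9 RPKM and were lowest in these same libraries within each genotype. The summed neutrophil markers were highest, within each treatment, in replicates 1 and 2 of DKO, with a range of 24.1 to 69.5 RPKM over all libraries. That sum was almost wholly S100a8 and S100a9. Of the same list, Mpo was at 0.745 to 1.551 RPKM and Ly6g at no more than 0.026 RPKM. The part of these differences in the results below was not tested, except by the fits without the Xist-positive libraries or with a term for them, which are quoted where they changed a call.

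In untreated Apoe-/- macrophages, the highest length-corrected level belonged to Lpl with 363 ± 42.7 RPKM (SD, n = 3), followed by Plin2 with 247 ± 9.04 RPKM. Hadha (34.1 ± 2.72 RPKM), Acadvl (29.4 ± 2.77 RPKM) and Cpt1a (21.1 ± 1.9 RPKM) formed a middle range, in which the replicate values of Hadha and Acadvl overlapped. Pparg (6.44 ± 1.07 RPKM) and Fabp4 (6.01 ± 0.0906 RPKM) could not be separated from each other, nor could Angptl4 (1.3 ± 0.36 RPKM) and Ppard (1.28 ± 0.0721 RPKM). Pdk4 was barely detected. Of the other PPAR, Ppara, no library exceeded 0.0124 RPKM, so the 2 receptors among the members accounted for nearly all PPAR transcripts in these cells.

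**Figure D1:**
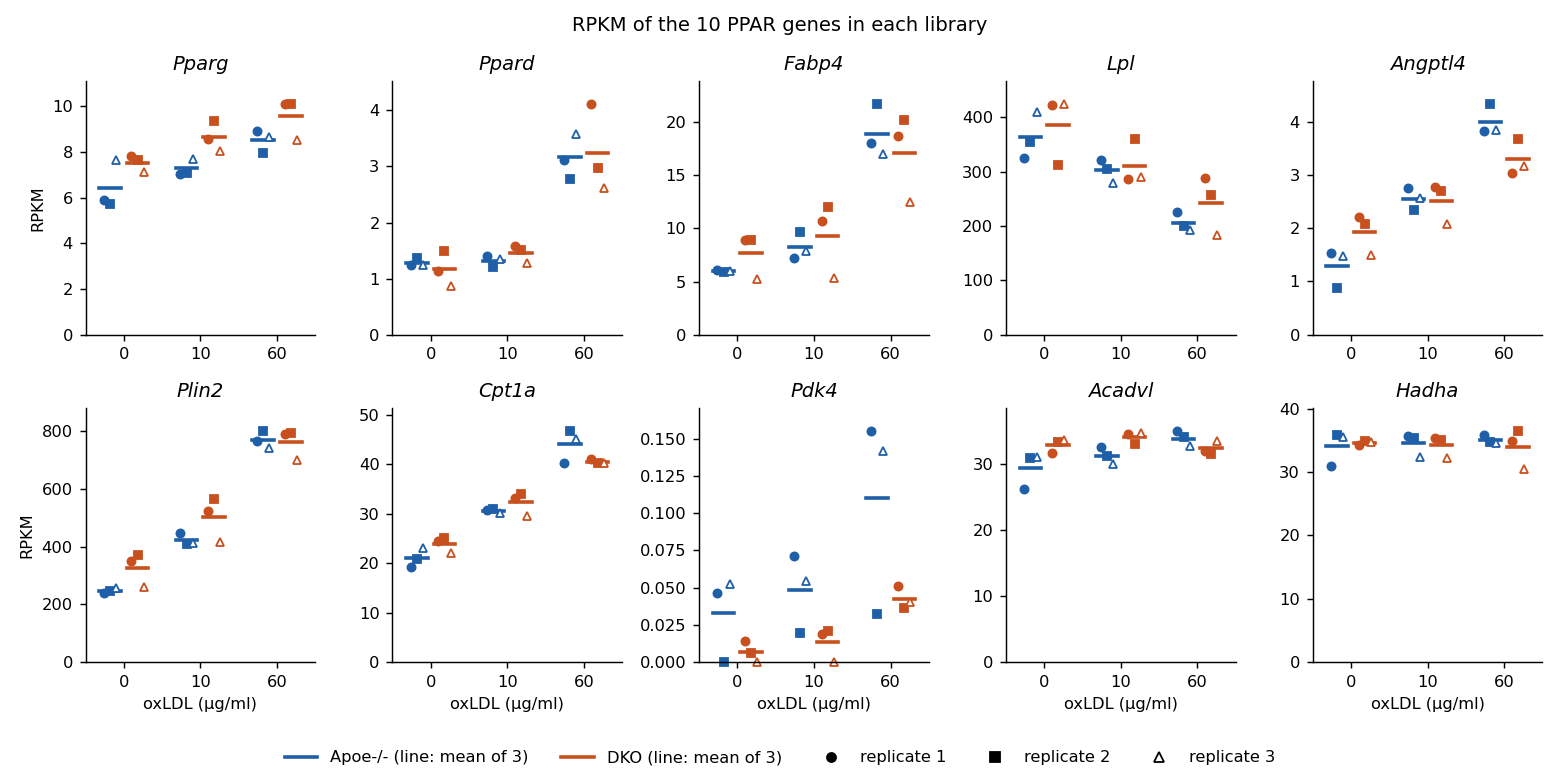
Level (RPKM, linear axis from 0) of each of the 10 genes in each of the 18 libraries by oxLDL concentration (µg/ml), with Apoe-/- in blue, DKO in orange, horizontal lines at the mean of 3 and symbols for the replicate number. Plin2, Cpt1a, Angptl4 and Fabp4 were highest with 60 µg/ml oxLDL in both genotypes, Lpl was lowest there, and Acadvl and Hadha stayed between 26.3 and 36.4 RPKM in all libraries.

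The first question was how oxLDL alone altered these genes in Apoe-/- macrophages. With 60 µg/ml, 6 of the 9 members that could be tested were called, 5 higher (Ppard, Fabp4, Angptl4, Plin2, Cpt1a) and 1 lower (Lpl). Calling required a fold of 1.4 or more together with a Benjamini-Hochberg adjusted p below 0.05 in limma. That method fits a linear model to each gene and lets genes share information on their spread. Over the 12838 genes tested, 7.13% were called higher and 6.78% lower in this comparison. With 10 µg/ml, 3 of 9 members were called, all higher (Angptl4, Plin2, Cpt1a), against 0.748% of all genes called higher and 2.04% called lower. Between 60 and 10 µg/ml, 5 members were called higher and Lpl lower, against 2.91% and 3.54% of all genes. In bulk RNA, a change in the number of cells expressing a gene and a change in RNA per cell cannot be told apart.

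The same comparisons in DKO macrophages called 6 of 9 members with 60 µg/ml, and the 5 higher genes and the lower one bore the same names as in Apoe-/-, against 4.87% of all genes called higher and 7.31% lower. With 10 µg/ml, Plin2 was the 1 member called, against 0.569% of all genes called higher and 1.69% lower. Between 60 and 10 µg/ml, Ppard, Fabp4 and Plin2 were called higher and no member lower, against 1.92% and 3.74%. The median difference of the 9 members at 60 µg/ml was 1.06 on the log2 scale in Apoe-/- and 0.76 in DKO, where the medians of all genes were 0.06 and -0.06.

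**Figure D2:**
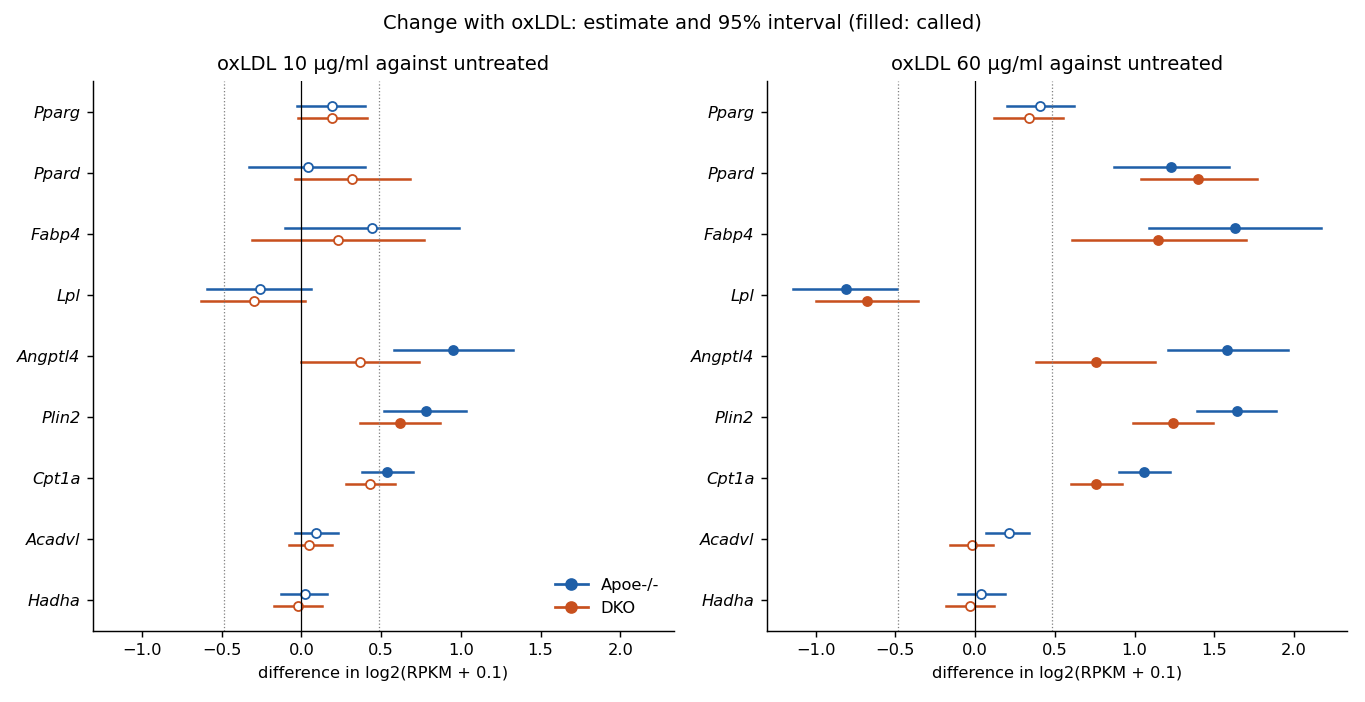
Difference in log2(RPKM + 0.1) between oxLDL-treated and untreated macrophages with its 95% interval for the 9 tested members, at 10 µg/ml (left) and 60 µg/ml (right), with Apoe-/- in blue, DKO in orange, filled points for called genes and dotted lines at the fold limit of 1.4. At 60 µg/ml the intervals of Ppard, Fabp4, Angptl4, Plin2, Cpt1a and Lpl lay away from 0 in both genotypes.

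Of the receptors, Ppard was called with the high dose in both genotypes and Pparg in neither. Ppard (chr17:28232754-28301469, GRCm38) was at 1.24, 1.37 and 1.24 RPKM in untreated Apoe-/- libraries, at 1.4, 1.21 and 1.35 RPKM with 10 µg/ml and at 3.11, 2.78 and 3.58 RPKM with 60 µg/ml. The untreated and low-dose libraries thus overlapped, with an interval for their log2 difference of -0.33 to 0.4, and all 3 high-dose libraries stood above them. The high dose raised it by 1.23 ± 0.17 (SE) on the log2(RPKM + 0.1) scale over untreated, with an adjusted p of 3.4e-05, and by 1.19 ± 0.17 over the low dose (adjusted p = 0.000137). In DKO, Ppard was at 1.14, 1.5 and 0.86 RPKM untreated, at 1.58, 1.51 and 1.27 RPKM with 10 µg/ml and at 4.11, 2.98 and 2.61 RPKM with 60 µg/ml. Again only the high-dose libraries stood apart, with a rise of 1.4 ± 0.17 over untreated (adjusted p = 9.32e-06) and of 1.08 ± 0.17 over the low dose (adjusted p = 0.000368). Libraries of a genotype with the same replicate number were taken as the same animal, which the labels do not state. Within animals so defined, the ratio of the high dose to untreated was 2.04 to 2.89 in Apoe-/- and 1.99 to 3.6 in DKO.

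Pparg (chr6:115360879-115490404) was at 5.9, 5.74 and 7.67 RPKM in untreated Apoe-/- libraries and at 8.94, 7.95 and 8.64 RPKM with 60 µg/ml. These groups did not overlap, and the log2 difference was 0.41 ± 0.1 with an adjusted p of 0.00507, but the fold of 1.33 lay under the limit of 1.4, so it was not called. It was called without Apoe-/- untreated replicate 3, the highest untreated library, where the difference was 0.54 (adjusted p = 0.000274). In DKO, Pparg was at 7.84, 7.65 and 7.13 RPKM untreated and at 10.1, 10.1 and 8.52 RPKM with 60 µg/ml, a log2 difference of 0.34 ± 0.1 (adjusted p = 0.0202) that was likewise under the fold limit. With 10 µg/ml it ran from 7.04 to 7.7 RPKM in Apoe-/- and from 8.03 to 9.36 RPKM in DKO, and neither group was called against its untreated group. All 6 animals had more Pparg with the high dose than untreated, by a factor between 1.13 and 1.52.

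Fabp4 (chr3:10204342-10208616) encodes the fatty acid-binding protein of adipocytes and macrophages, which carries fatty acids within the cell. Its level was 6.11, 5.94 and 5.98 RPKM in untreated Apoe-/- libraries, 7.25, 9.62 and 7.9 RPKM with 10 µg/ml and 18, 21.7 and 17 RPKM with 60 µg/ml. The 3 groups did not overlap, but the step to the low dose was not called, its interval being -0.1 to 0.99 on the log2 scale. The high dose raised Fabp4 by 1.63 ± 0.26 over untreated (adjusted p = 0.000118) and by 1.19 ± 0.26 over the low dose (adjusted p = 0.00452).

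In DKO, Fabp4 was at 8.89, 8.95 and 5.27 RPKM untreated, at 10.7, 12 and 5.31 RPKM with 10 µg/ml and at 18.7, 20.2 and 12.5 RPKM with 60 µg/ml. The third animal, whose libraries were Xist-positive, was the lowest at each treatment, far below the other animals in the untreated and low-dose groups. The high dose raised Fabp4 by 1.15 ± 0.26 over untreated (adjusted p = 0.0028) and by 0.92 ± 0.26 over the low dose (adjusted p = 0.0218). The latter call was lost without DKO oxLDL 10 replicate 3 (0.56, adjusted p = 0.0958), without DKO oxLDL 60 replicate 1 (0.85, adjusted p = 0.0742) and without replicate 2 of that group (0.79, adjusted p = 0.0927). It was also lost with no filter on low values (adjusted p = 0.0518) and when only the compared groups were fitted (adjusted p = 0.099). Each animal nevertheless showed 2.1 to 2.38 times as much Fabp4 with the high dose as untreated, a narrower spread than that of the levels themselves.

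Lpl (chr8:68880555-68906932) encodes lipoprotein lipase, the secreted enzyme that frees fatty acids from lipoprotein triglycerides, and was the 1 member that fell. In Apoe-/- it was at 325, 354 and 409 RPKM untreated, at 321, 305 and 279 RPKM with 10 µg/ml and at 226, 200 and 192 RPKM with 60 µg/ml. Each group lay wholly below the preceding one. The log2 difference between the high dose and untreated was -0.81 ± 0.15, with an interval of -1.14 to -0.49 and an adjusted p of 0.000584.

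The step of Lpl from 10 to 60 µg/ml in Apoe-/- was -0.55 ± 0.15 (adjusted p = 0.0224). This call was lost without Apoe-/- oxLDL 10 replicate 1 (-0.51, adjusted p = 0.0785), without replicate 2 of that group (-0.54, adjusted p = 0.0541), without Apoe-/- oxLDL 60 replicate 2 (-0.53, adjusted p = 0.0698), without replicate 3 of that group (-0.5, adjusted p = 0.0855) and with no filter on low values (adjusted p = 0.0537). In DKO, Lpl was at 423, 312 and 424 RPKM untreated, at 286, 359 and 290 RPKM with 10 µg/ml and at 289, 257 and 184 RPKM with 60 µg/ml. Untreated and high-dose libraries did not overlap, the low-dose group overlapped both, and the difference between the ends was -0.68 ± 0.15 (adjusted p = 0.00302). Without the Xist-positive libraries that difference was -0.42 and no longer called (adjusted p = 0.0799). The step from 10 to 60 µg/ml in DKO was -0.38 ± 0.15 (adjusted p = 0.112) and was called only without DKO oxLDL 60 replicate 1 (-0.51, adjusted p = 0.0476). In all 6 animals Lpl was lower with the high dose than untreated, at 0.434 to 0.824 of the untreated level.

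Angptl4 (chr17:33774900-33781575) encodes angiopoietin-like 4, a secreted inhibitor of lipoprotein lipase, and moved opposite to Lpl. It was at 1.54, 0.887 and 1.48 RPKM in untreated Apoe-/- libraries, at 2.75, 2.34 and 2.57 RPKM with 10 µg/ml and at 3.83, 4.33 and 3.85 RPKM with 60 µg/ml. The 3 groups were fully separated. The rise over untreated was 0.95 ± 0.18 on the log2 scale with the low dose (adjusted p = 0.00341) and 1.58 ± 0.18 with the high dose (adjusted p = 2.77e-06). The step between the doses, 0.63 ± 0.18 (adjusted p = 0.024), was lost without Apoe-/- oxLDL 10 replicate 2 or 3 (adjusted p = 0.0755 and 0.0637), without Apoe-/- oxLDL 60 replicate 1, 2 or 3 (adjusted p = 0.0511, 0.0905 and 0.0541), and with no filter on low values (adjusted p = 0.0541), with a difference of 0.57 to 0.66.

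In DKO, Angptl4 was at 2.21, 2.08 and 1.49 RPKM untreated, at 2.77, 2.7 and 2.07 RPKM with 10 µg/ml and at 3.04, 3.67 and 3.16 RPKM with 60 µg/ml. The untreated and low-dose libraries overlapped at replicate 3, and the high-dose libraries lay above both. The rise over untreated was called with the high dose (0.76 ± 0.18, adjusted p = 0.00409) and not with the low dose, whose interval was 0 to 0.74. Within animals, the high dose multiplied Angptl4 by 2.49 to 4.89 in Apoe-/- and by 1.38 to 2.12 in DKO, ranges that did not overlap. The test of that difference is given with the genotype comparisons.

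Plin2 (chr4:86626910-86670217) encodes perilipin 2, the coat protein of lipid droplets, and had the highest level of all members with oxLDL. In Apoe-/- it was at 238, 245 and 256 RPKM untreated, at 448, 408 and 411 RPKM with 10 µg/ml and at 766, 799 and 743 RPKM with 60 µg/ml. The groups were far apart relative to their spread. The rise was 0.78 ± 0.12 on the log2 scale with the low dose (adjusted p = 0.000862), 1.64 ± 0.12 with the high dose (adjusted p = 1.84e-08) and 0.87 ± 0.12 between them (adjusted p = 9.18e-05).

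In DKO, Plin2 was at 349, 370 and 260 RPKM untreated, at 523, 564 and 415 RPKM with 10 µg/ml and at 790, 793 and 701 RPKM with 60 µg/ml. Replicate 3 was lowest in each group, and the groups still did not overlap. The rise was 0.62 ± 0.12 with the low dose (adjusted p = 0.00551), 1.24 ± 0.12 with the high dose (adjusted p = 5.97e-07) and 0.61 ± 0.12 between them (adjusted p = 0.00191). The low-dose call was lost when only the compared groups were fitted (adjusted p = 0.106), and without DKO untreated replicate 3 the difference of 0.47 fell under the fold limit (adjusted p = 0.0291).

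The promoters were examined because a PPAR bound with its partner recognises 2 copies of AGGTCA separated by 1 base. The 250 bases before the start site, from RefSeq on GRCm38.p6, were at hand for 7 of the 10 members (Pparg, Ppard, Plin2, Cpt1a, Pdk4, Acadvl, Hadha) in 9 windows. A match was a stretch on either strand with at most 2 mismatches over the 12 letters of both copies. Of all 32851 promoter windows, 3.24% held such a match. Plin2 was the 1 member with one, and 8 of 121 windows of the other listed pathway genes held one. The windows of Plin2 and of Cat, Acot4 and Cd36, the listed genes that held a match and were called with the high dose in Apoe-/-, are shown here in the direction of transcription with the match in capitals.
Plin2, chr4:86670263-86670292, minus strand: agctttcaGGACCCCTGACCTaagtcagac
Cat, chr2:103485336-103485365, minus strand: actctcagAGGTCAGAGAACAccagcaggg
Acot4, chr12:84038349-84038378, plus strand: ggctcagccccgaagcaTGACCTTTGGCCG
Cd36, chr5:17835938-17835967, minus strand: tggttctcTGGCCTCTGACTTacttggatg
In Plin2 the match lies on the strand opposite to transcription and begins 225 bases before the start site. A single exact AGGTCA on either strand was in 5 of the 9 member windows and in 14.0% of all windows. It was likewise in 14.0% of the windows of the other listed pathway genes. Pparg supplied more than 1 of the 5 member windows, so these are not 5 separate genes. The windows shown were chosen by the call, and the other listed genes with a match were not called in that comparison. These are matches of letters within short windows and say nothing of binding in these cells.

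Cpt1a (chr19:3322326-3385735) encodes the carnitine palmitoyltransferase of the outer mitochondrial membrane, the gatekeeper of fatty acid oxidation. In Apoe-/- it was at 19.3, 20.8 and 23.1 RPKM untreated, at 30.8, 31 and 30.2 RPKM with 10 µg/ml and at 40.3, 46.7 and 45.1 RPKM with 60 µg/ml. The 3 groups were separated, with rises of 0.54 ± 0.07 on the log2 scale with the low dose (adjusted p = 0.000403) and 1.06 ± 0.07 with the high dose (adjusted p = 1.34e-08). The low-dose rise was close to the fold limit and was not called after rescaling by the median ratio (0.47, adjusted p = 0.000135) or without Apoe-/- untreated replicate 1 (0.48, adjusted p = 0.00117). The step between the doses was 0.52 ± 0.07 (adjusted p = 0.000134), and it lay just under the fold limit without Apoe-/- oxLDL 60 replicate 2 (0.48, adjusted p = 0.00126) and without the Xist-positive libraries (0.49, adjusted p = 0.00199).

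In DKO, Cpt1a was at 24.5, 25.1 and 22 RPKM untreated, at 33.2, 34.1 and 29.6 RPKM with 10 µg/ml and at 41, 40.2 and 40.2 RPKM with 60 µg/ml. The groups were again separated, and the high dose raised it by 0.76 ± 0.07 (adjusted p = 7.44e-07). The low-dose difference of 0.43 ± 0.07 (adjusted p = 0.00285) and the step between the doses of 0.33 ± 0.07 (adjusted p = 0.00671) passed the p threshold but not the fold limit. The former was called without DKO oxLDL 10 replicate 3 (0.49, adjusted p = 0.00204).

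Acadvl (chr11:70010183-70015428) and Hadha (chr5:30119423-30154980) encode enzymes of the fatty acid oxidation spiral, the very long-chain acyl-CoA dehydrogenase and the alpha subunit of the trifunctional protein. Acadvl was at 26.3, 31 and 31.1 RPKM in untreated Apoe-/- libraries and at 35, 34.1 and 32.8 RPKM with 60 µg/ml, a log2 difference of 0.21 ± 0.06 (adjusted p = 0.0185) under the fold limit. In DKO it was at 31.7, 33.4 and 33.7 RPKM untreated and at 32, 31.6 and 33.6 RPKM with 60 µg/ml, and these groups overlapped. Hadha was at 31, 35.9 and 35.5 RPKM untreated and at 35.9, 34.7 and 34.6 RPKM with 60 µg/ml in Apoe-/-, and at 34.2, 34.9 and 34.7 RPKM against 34.9, 36.4 and 30.5 RPKM in DKO. All groups of Hadha overlapped, and the intervals for its response to 60 µg/ml, -0.11 to 0.19 in Apoe-/- and -0.18 to 0.12 in DKO on the log2 scale, bounded any change well inside the fold limit.

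Pdk4 (chr6:5483351-5496278) encodes the pyruvate dehydrogenase kinase that diverts cells from glucose to fatty acid oxidation. It did not pass the filter of 0.1 RPKM in 3 libraries and was not tested. In Apoe-/- its values corresponded to 7, 0 and 8 reads untreated, 11, 3 and 8 reads with 10 µg/ml and 29, 5 and 21 reads with 60 µg/ml. In DKO they corresponded to 2, 1 and 0 reads untreated, 3, 3 and 0 reads with 10 µg/ml and 7, 6 and 7 reads with 60 µg/ml. The largest counts came from replicates 1 and 3 of Apoe-/- with the high dose, and the Xist-positive replicate 2 was lowest of each Apoe-/- group. Replicates 1 and 3 of Apoe-/- had more reads than every DKO library of the same treatment. A library with 0 reads allows up to 3. Since untreated Apoe-/- replicate 2 had 0 reads, the untreated groups of the 2 genotypes overlapped and could not be ordered.

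The second question was whether these genes differed between DKO and Apoe-/- cells, the DKO lacking Treml4, a myeloid receptor-like gene of the TREM family. The study describes intercrossing the double mutants over generations. Loss of Treml4 therefore cannot be told apart from other differences between the lines. Treml4 (chr17:48264200-48275607) lies on the same chromosome as Ppard and Angptl4, and the part of that position was not tested. None of the 9 members was called between DKO and Apoe-/- in any of the 3 treatments, where limma called 0.21% of all genes in untreated cells, 0.0857% with 10 µg/ml and 0.125% with 60 µg/ml. At an unadjusted p under 0.05, 5 members in untreated cells (Pparg, Angptl4, Plin2, Cpt1a, Acadvl), 1 with 10 µg/ml (Pparg) and 0 with 60 µg/ml differed, against 17.3%, 9.75% and 7.88% of all genes. All 5 members in untreated cells were higher in DKO. The log2 differences were 0.55 ± 0.18 for Angptl4 (adjusted p = 0.153), 0.39 ± 0.12 for Plin2 (adjusted p = 0.141), 0.24 ± 0.1 for Pparg (adjusted p = 0.248), 0.18 ± 0.07 for Cpt1a (adjusted p = 0.243) and 0.16 ± 0.06 for Acadvl (adjusted p = 0.207), where the median of all genes was 0.09. After rescaling by the median ratio that median was -0.01. With 10 µg/ml, Pparg was 0.24 ± 0.1 higher in DKO (adjusted p = 0.488). With 60 µg/ml the differences of the 9 members ran from -0.28 to 0.22.

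These genotype differences depended on which animals were included. DKO replicate 3 held the lowest DKO value in 19 of 27 combinations of a member and a treatment, and in all 3 treatments for Pparg, Ppard, Fabp4 and Plin2. In Apoe-/- the lowest value was spread over the replicates, 9 times in replicate 1, 8 in replicate 2 and 10 in replicate 3. These tallies cover the tested members only, which are correlated, and no share over all genes was computed. They describe these libraries and are no trait of the members. Plin2 is an example, since DKO replicates 1 and 2 were at 349 and 370 RPKM untreated and replicate 3 at 260 RPKM, next to the highest Apoe-/- library at 256 RPKM. Without DKO untreated replicate 3, Plin2 was called higher in untreated DKO cells by 0.54 on the log2 scale (adjusted p = 0.0351), in a fit that called 75 of all genes. Without the Xist-positive libraries, which left 2 libraries a group, Plin2 (0.54, adjusted p = 0.00539) and Fabp4 (0.55, adjusted p = 0.00414) were called higher in untreated DKO cells and Fabp4 also with 10 µg/ml (0.57, adjusted p = 0.00627). That fit called 308 of all genes in untreated cells, where 27 were called as reported, and 110 with 10 µg/ml, where 11 were, so more genes of any kind were called in it. With a term for the Xist-positive libraries, Angptl4 was called in untreated cells (0.55, adjusted p = 0.0222), in a fit that called 172 of all genes there. The summed neutrophil markers, almost wholly S100a8 and S100a9, reached 69.5 RPKM in untreated DKO cells and 38 RPKM in untreated Apoe-/- cells. Their part in these differences was not tested.

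The third question was whether the response to oxLDL differed between the genotypes, tested as an interaction. None of the 9 members was called by limma, and of all genes 0 were called with 10 µg/ml, which is 0%, and 0.0156% with 60 µg/ml. At an unadjusted p under 0.05, 1 member (Angptl4) passed with 10 µg/ml and 4 with 60 µg/ml, against 1.92% and 9.78% of all genes. For Angptl4, the response to 60 µg/ml in DKO minus that in Apoe-/- was -0.83 ± 0.25 on the log2 scale, with an interval of -1.36 to -0.3 and an adjusted p of 0.507. For Plin2 the difference was -0.4 ± 0.17, for Cpt1a -0.3 ± 0.11 and for Acadvl -0.23 ± 0.09, all with the same adjusted p of 0.507. The response of Angptl4 to 10 µg/ml differed by -0.58 ± 0.25 (adjusted p = 1).

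The median interaction of all genes at 60 µg/ml was -0.11, and rescaling by the median ratio moved it by 0.13 to 0.01. Rescaled, the differences were -0.7 for Angptl4, -0.27 for Plin2, -0.17 for Cpt1a and -0.1 for Acadvl. Over all alternatives the difference of Angptl4 stayed between -0.99 and -0.58, with an adjusted p of 0.192 to 1. For Ppard the interval of the difference at 60 µg/ml was -0.34 to 0.69, for Fabp4 -1.24 to 0.29 and for Lpl -0.32 to 0.59, widths at which neither equal responses nor sizeable differences could be told apart.

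**Figure D3:**
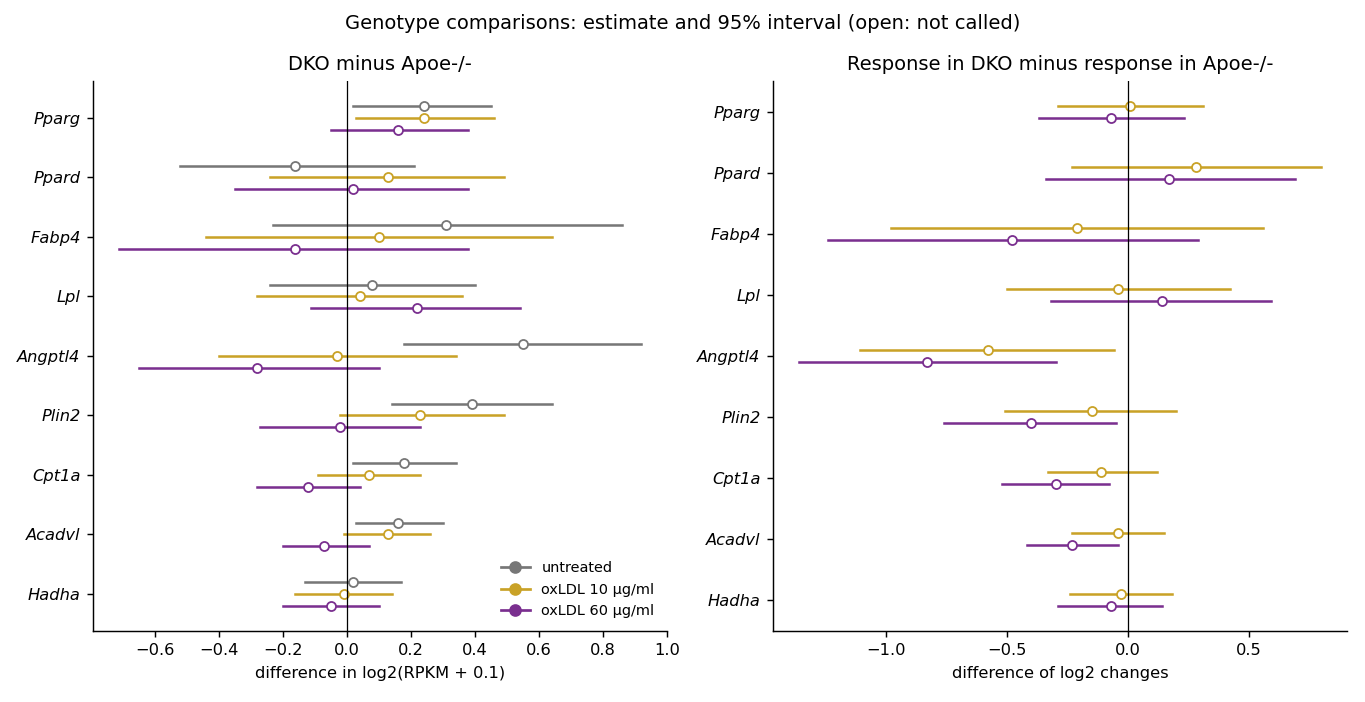
Left, difference in log2(RPKM + 0.1) between DKO and Apoe-/- macrophages at each treatment, and right, the response to oxLDL in DKO minus that in Apoe-/- (log2), each with its 95% interval for the 9 tested members. All points are open because none was called. The differences of Fabp4, Angptl4, Plin2, Cpt1a, Acadvl and Hadha move from above 0 in untreated cells to below 0 with 60 µg/ml. The median of all genes likewise moves from 0.09 to -0.02.

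Around the members, 120 further genes of the pathway were followed in 7 lists, of which 114 were in the table and 99 could be tested. With 60 µg/ml in Apoe-/-, 15 were called higher and 6 lower, against 7.13% and 6.78% of all genes, and in DKO 10 higher and 4 lower, against 4.87% and 7.31%. These shares also apply to the counts of the single lists below, which are small and were not tested against them. With 10 µg/ml, 5 higher and 1 lower were called in Apoe-/-, against 0.748% and 2.04% of all genes, and 2 higher and 1 lower in DKO, against 0.569% and 1.69%. No listed gene was called between the genotypes at any treatment or in either interaction.

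The partner receptors and coregulators were mostly not called. With 60 µg/ml, 2 of 13 tested were above 0 in Apoe-/- and 1 in DKO, with medians of -0.19 and -0.15 beside 0.06 and -0.06 for all genes, and rescaled by the median ratio 2 of 13 were above 0 in each genotype. Of the 13, 1 was called lower with 60 µg/ml in Apoe-/-, Ep300, which encodes a histone acetyltransferase, at -0.6 ± 0.15 (adjusted p = 0.0052), and 0 in DKO. Without Apoe-/- untreated replicate 3 its difference of -0.47 lay under the fold limit. Rxra, the retinoid X receptor partner, was at 12.1 ± 0.924 RPKM with 60 µg/ml, with a difference of 0.39 ± 0.12 (adjusted p = 0.021) that was under the fold limit. Ppargc1b, a coactivator of oxidative genes, was at 0.194 ± 0.0305 RPKM with 60 µg/ml and was not called (-0.39 ± 0.15, adjusted p = 0.0539).

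Among 16 tested genes of fatty acid uptake, binding and activation, 4 rose and 3 fell with 60 µg/ml in Apoe-/-, and 2 rose and 2 fell in DKO. Cd36, the scavenger receptor and fatty acid translocase, went from 196 ± 20.5 to 438 ± 33.9 RPKM in Apoe-/- (1.17 ± 0.14, adjusted p = 9.51e-06), and DKO cells went from 207 ± 38 to 424 ± 54.8 RPKM (1.04 ± 0.14, adjusted p = 3.65e-05). Lipa, the lysosomal acid lipase, rose by 0.79 ± 0.08 in Apoe-/- and 0.66 ± 0.08 in DKO. Fabp5, the other macrophage fatty acid-binding protein, rose in Apoe-/- by 0.73 ± 0.17 (adjusted p = 0.0039), beside 1.63 for Fabp4, while its 0.4 ± 0.17 in DKO was not called (adjusted p = 0.103) unless DKO oxLDL 60 replicate 3 was left out (0.54, adjusted p = 0.0456). Acsl1, an acyl-CoA synthetase, fell, by -0.74 ± 0.08 in Apoe-/- and -0.72 ± 0.08 in DKO.

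The other droplet proteins followed Plin2 in part, with 3 higher and 1 lower of 7 tested in each genotype at 60 µg/ml. Hilpda, a droplet protein that inhibits the triglyceride lipase ATGL, went from 4.08 ± 0.323 to 16.2 ± 1.29 RPKM in Apoe-/- (1.96 ± 0.18, adjusted p = 2.76e-07), and the DKO means were 5.11 ± 1.23 and 17.7 ± 4.1 RPKM (1.77 ± 0.18, adjusted p = 9.75e-07). Plin3, another perilipin, rose by 0.83 ± 0.09 and 0.61 ± 0.09. G0s2, also an ATGL inhibitor, was at only 0.369 ± 0.129 RPKM with 60 µg/ml in Apoe-/-. Its rise of 1.07 ± 0.33 (adjusted p = 0.0222) was lost with a pseudocount of 1 (0.28) and without Apoe-/- untreated replicate 2 (0.94, adjusted p = 0.0797), untreated replicate 3 (0.93, adjusted p = 0.0774), oxLDL 60 replicate 2 (1.05, adjusted p = 0.057) or oxLDL 60 replicate 3 (0.87, adjusted p = 0.0962). Without the Xist-positive libraries G0s2 was called in neither genotype (0.92 and 0.96, adjusted p = 0.0745 and 0.0748).

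The genes of the carnitine shuttle and of mitochondrial fatty acid oxidation beside Cpt1a were mostly not called. With 60 µg/ml, 2 of 26 tested were called higher in Apoe-/-, Slc25a20, the carnitine-acylcarnitine carrier (0.62 ± 0.08, adjusted p = 1.77e-05), and Acaa2, a thiolase (0.51 ± 0.08, adjusted p = 0.000139), and 0 in DKO. The call of Acaa2 was lost without Apoe-/- untreated replicate 1 (0.41), without Apoe-/- oxLDL 60 replicate 2 (0.45), without the Xist-positive libraries (0.46) and after rescaling (0.44). Slc25a20 was called in DKO without DKO oxLDL 60 replicate 3 (0.5, adjusted p = 0.0006), without the Xist-positive libraries (0.51) and after rescaling (0.52). The list median was 0.23 in Apoe-/- and 0.04 in DKO, beside medians of all genes of 0.06 and -0.06, and 24 of 26 genes were above 0 in Apoe-/- and 16 in DKO. Rescaled, 21 and 18 of 26 were above 0, with medians of 0.17 and 0.11. Hadhb, the beta subunit paired with Hadha and its head-to-head neighbour on chromosome 5, was at 28.3 ± 2.98 RPKM untreated and 33.3 ± 0.328 RPKM with 60 µg/ml in Apoe-/- (0.24 ± 0.08, adjusted p = 0.0265), under the fold limit. Cpt2, the inner-membrane partner of Cpt1a, was at 7.32 ± 0.29 RPKM with 60 µg/ml in Apoe-/- and was not called (0.18 ± 0.08, adjusted p = 0.0848). In the interaction at 60 µg/ml, the list median was -0.2 with 0 of 26 genes above 0, and rescaled it was -0.07 with 4 of 26 above 0.

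Peroxisomal oxidation and thioesterase genes showed 3 of 17 higher in Apoe-/- and 2 of 17 in DKO with 60 µg/ml. Cat, the peroxisomal catalase, went from 106 ± 4.21 to 251 ± 1.98 RPKM in Apoe-/- (1.24 ± 0.08, adjusted p = 3.81e-09), and in DKO from 115 ± 10.7 to 247 ± 14.4 RPKM (1.1 ± 0.08, adjusted p = 1.52e-08). Acot4, a peroxisomal thioesterase, was low, at 0.0501 ± 0.0268 RPKM untreated and 0.351 ± 0.0503 RPKM with 60 µg/ml in Apoe-/-, and its rise of 1.6 ± 0.25 (adjusted p = 9.33e-05) was 0.36 and not called with a pseudocount of 1. Acot1, a cytosolic thioesterase close enough in sequence to its relatives that reads may be shared, rose by 0.67 ± 0.21 in Apoe-/- (adjusted p = 0.0214). That call was lost without Apoe-/- untreated replicate 1 (0.64, adjusted p = 0.0638), untreated replicate 2 (0.46, adjusted p = 0.12) or oxLDL 60 replicate 2 (0.51, adjusted p = 0.108), when only the compared groups were fitted (adjusted p = 0.0627), with a pseudocount of 1 (0.32), and without the Xist-positive libraries (0.31, adjusted p = 0.3).

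Of 12 tested genes of the pyruvate dehydrogenase complex and its regulators, 1 was called with 60 µg/ml in each genotype. This was Pdp1, the phosphatase that reactivates the complex and so acts opposite to Pdk4, with a rise of 1.06 ± 0.09 in Apoe-/- (adjusted p = 1.4e-07) and 0.76 ± 0.09 in DKO (adjusted p = 7.58e-06). Pdk1, a kinase of the same family as Pdk4, was at 14.9 ± 1.06 RPKM with 60 µg/ml in Apoe-/- and 14 ± 0.908 RPKM in DKO, and was called in neither.

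Among 8 tested angiopoietin-like genes and other lipases, 2 rose and 1 fell with 60 µg/ml in each genotype. Angptl2, a secreted relative of Angptl4, went from 46.4 ± 2.25 to 108 ± 9.01 RPKM in Apoe-/- (1.22 ± 0.16, adjusted p = 1.37e-05), and the DKO means were 67.3 ± 13.5 and 134 ± 15.3 RPKM (1 ± 0.16, adjusted p = 0.000116). Angptl6 rose in Apoe-/- by 0.63 ± 0.15 (adjusted p = 0.00363), a call lost with a pseudocount of 1 (0.36), and was not called in DKO, with an interval of -0.04 to 0.59. Lipg, endothelial lipase, fell as Lpl did, from 0.172 ± 0.0693 to 0.0183 ± 0.0116 RPKM in Apoe-/- (-1.18 ± 0.2, adjusted p = 0.000201), and the DKO means were 0.143 ± 0.0249 and 0.0138 ± 0.00528 RPKM (-1.09 ± 0.2, adjusted p = 0.000483), at levels where a pseudocount of 1 left -0.2 and -0.17 and no call.

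**Figure D4:**
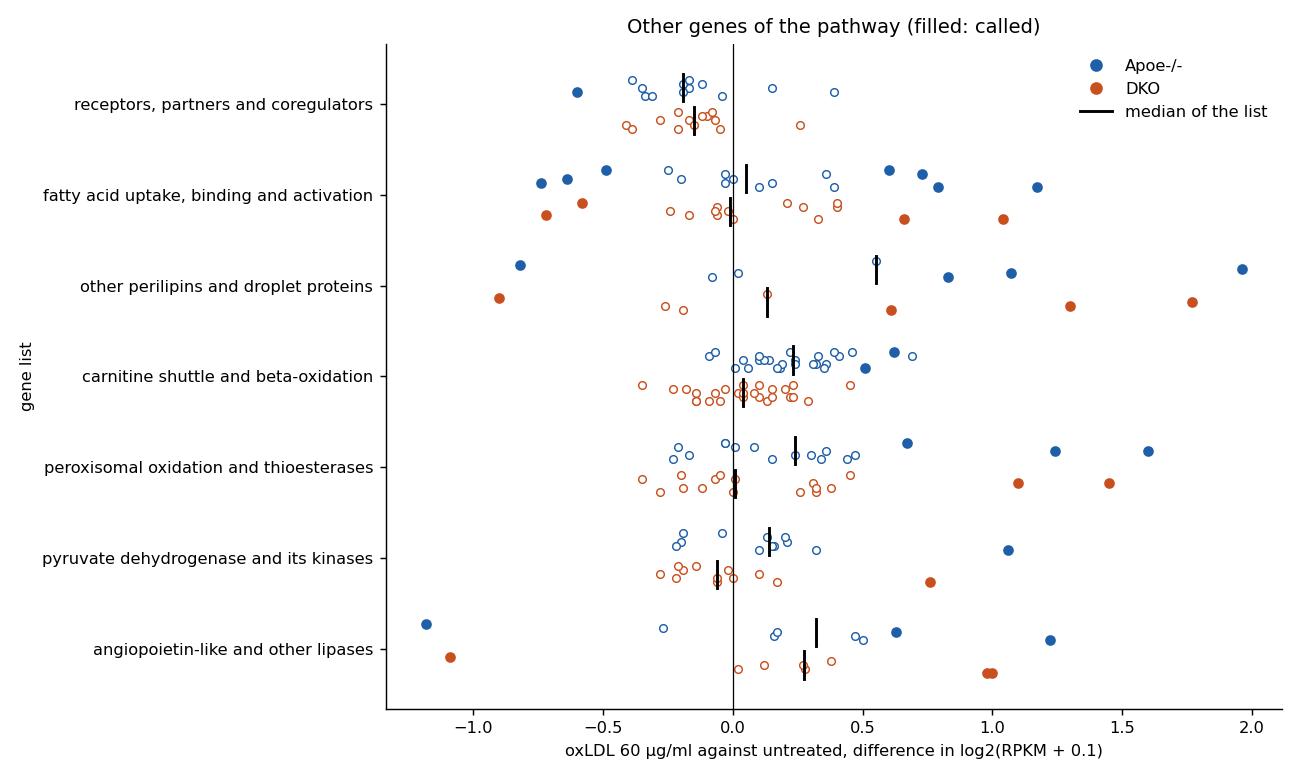
Difference in log2(RPKM + 0.1) between 60 µg/ml oxLDL and untreated macrophages for the 99 tested genes of 7 pathway lists, with Apoe-/- in blue, DKO in orange, filled points for called genes and black bars at the list medians. Most genes of the carnitine shuttle and beta-oxidation list lay within the fold limit, with medians of 0.23 and 0.04, while Hilpda stood at 1.96 and 1.77.

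Across the 18 libraries, the log2 levels of Plin2 and Cpt1a followed each other most closely of all pairs of members, with a Pearson r of 0.98, and of 0.71 after removal of the 6 group means. Within groups the closest pair of members was Fabp4 with Plin2, at 0.85, with 0.92 over all libraries. Angptl4 with Cpt1a and with Plin2 both gave 0.93, with 0.44 and 0.63 within groups. These correlations are descriptions over libraries that share treatments and animals. Among 10101 genes with a mean of at least 1 RPKM, the closest to Plin2 were Zfand2a (r = 0.992) and Gde1 (r = 0.991), the closest to Cpt1a were Rnh1 (r = 0.992) and Nceh1 (r = 0.99), and the closest to Fabp4 were Samd8 (r = 0.96) and Ttyh2 (r = 0.959). Ppard was followed by Atp6v0a1 (r = 0.975) and Layn (r = 0.971), and Pparg by Cmtm4 (r = 0.933) and Klf6 (r = 0.926). For Angptl4 they were Socs6 (r = 0.95) and Klf11 (r = 0.938), and for Lpl AI839979 (r = 0.934) and Phf11a (r = 0.93). For Acadvl (Eef1b2, r = 0.878, and Etfb, r = 0.874) and Hadha (Ube2m, r = 0.851, and Pea15a, r = 0.835), which barely moved, the likeness was lower.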

How the data were processed

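The deposited values were RPKM per gene, which the authors made from RNA sequencing reads. The labels give total RNA as the molecule, and the study describes stranded TruSeq libraries with poly(A) selection, in a passage that also covers its other RNA sequencing. The submitters' processing notes name STAR and mm10, and the study describes an alignment workflow with STAR. The annotation and the counting settings, strand included, are not given in the sources used here. The sources differ on the length of the oxLDL exposure. The 18 libraries were grouped by their titles. Genes reaching 0.1 RPKM in 3 or more libraries (12838 genes) were fitted on log2(RPKM + 0.1) with limma 3.58.1 (R 4.3.3; lmFit, eBayes with trend) with one mean per group over all 18 libraries. Fold changes are on this log2 scale, which understates the change of low genes. Benjamini-Hochberg adjustment ran within each of 11 comparisons. Between 3 libraries a side an exact permutation test cannot go below 0.1, so none was used. Depth was recovered from the steps of low RPKM values, which placed Pdk4 at a whole number of reads (tolerance 0.05) in 18 libraries, and 3 reads per kilobase correspond to 0.0554 to 0.0756 RPKM. Read counts carry counting error only. The scripts were tested on simulated data. Libraries with the same replicate number within a genotype deviated together (18 pairs, correlation 0.18 to 0.69, median 0.41), so the numbers mark the same animal across treatments. Between genotypes the median was -0.17. The table lists 24 symbols turned into dates, none of them a member. The members, lists and tests were chosen with earlier results of these data known. The text names all members, Treml4, 8 fixed pathway genes, up to 3 genes per list with the largest called change at 60 µg/ml in Apoe-/-, and the 2 genes most correlated with each member. Single log2 differences are given where the unadjusted p was under 0.05, and otherwise levels, ranges or intervals. Promoter windows and positions come from RefSeq GRCm38.p6, the same assembly as mm10.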

Additional observations from a re-analysis of the deposited data

How the results depend on the processing

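Of 734 refits of the 44 member values with an unadjusted p under 0.05, 700 kept their direction and call, 23 lost the call, 11 gained it and 0 changed direction. Of 958 refits of the other 55 member values, 80 changed sign, none of them called, the largest with a size of 0.17, and 2 became called. Of 617 refits of the other named pathway genes with an unadjusted p under 0.05, 585 kept their direction and call, 24 lost the call and 8 gained it. The count of members called with 10 µg/ml in DKO, 1 as reported, was 0 when only the compared groups were fitted and 2 with no limit on the fold change, and between 0 and 2 with each replicate left out. The count between 60 and 10 µg/ml in Apoe-/-, 6 as reported, was 3 to 5 with each replicate left out, and the lowest came without oxLDL 60 replicate 2. The count between DKO and Apoe-/- in untreated cells, 0 as reported, was 1 with a term for the Xist-positive libraries, 2 without those libraries, and 0 to 1 with each replicate left out. With 10 µg/ml it was 1 without the Xist-positive libraries, an alternative chosen after seeing the data. Over all genes, the calls between genotypes moved from 27 to 172 and 308 in untreated cells and from 11 to 75 and 110 with 10 µg/ml, with the term and without the libraries. The cause of these changes was not tested. With the animal as a replicate block, the members called numbered 3, 6 and 6 in Apoe-/- and 1, 6 and 3 in DKO, as reported, no member changed its call or direction, and the adjusted p of Angptl4 in the interaction at 60 µg/ml was 0.192. Over all genes the replicate block moved the calls with 10 µg/ml in DKO from 290 to 449. With 3 libraries a group, the intervals of Fabp4 between genotypes reached past the fold limit at each treatment, and Pdk4 was too low to test.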
